A study of Mus musculus with 28 samples.

Results

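The MHC class II presentation genes are 9 genes taken by name: H2-Aa, H2-Ab1, H2-Eb1, Cd74, H2-DMa, H2-DMb1, H2-Oa, H2-Ob and Ciita. A gene counted as measured where a probe set of the array named it and no other gene. Of the 9, 8 were measured, each by a single probe set, among 18820 genes measured in this way. The only probe set for H2-DMb1 also names H2-DMb2, so H2-DMb1 was not analysed here. Levels were measured in whole liver of 28 male C57BL/6J mice, 1 single-colour array for each mouse, and every mouse was on an intermittent diet at sampling. Free access to moderate-fat food, with 25% of its energy from fat, lasted for a week, and in the next week the mouse got 60% of what controls ate in energy. Lifelong groups kept to this alternation from 9 weeks of age and were sampled at 6 months (n = 6), 12 months (n = 7) or 24 months (n = 7). The switched group (n = 8) was kept on the moderate-fat food up to 12 months of age and on the alternation afterwards, with livers taken at 24 months. Mice were housed singly, and before sampling each had a 4-hour fast, a gavage of carboxymethyl cellulose and then a 6-hour fast. Mice that stayed on control, restricted or moderate-fat food throughout were not analysed here. The sources used here do not say in which diet week a mouse was killed, and the age comparisons are comparisons within the intermittent diet.

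MHC class II molecules carry peptides of proteins taken up from outside the cell to the cell surface, where CD4 T cells read them. An alpha and a beta chain form each molecule (H2-Aa with H2-Ab1, and H2-Eb1 with an E alpha chain that C57BL/6 mice do not make). The invariant chain Cd74 fills the groove until the molecule reaches endosomes, H2-DM, made of H2-DMa and a DMb chain, exchanges the last piece of it for peptide, and H2-O, made of H2-Oa and H2-Ob, restrains H2-DM and is known mainly from B cells, thymic epithelium and some dendritic cells. Ciita is the coactivator that switches most of these genes on together. In liver they are known chiefly from Kupffer cells, dendritic cells and B cells, with less in sinusoidal endothelium and very little in resting hepatocytes. Whole liver RNA holds all of these cells at once, so more cells of a type and more RNA for each cell cannot be told apart in any value given here.

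Promoters of these genes are known for an X box bound by RFX and a Y box bound by NF-Y, on which Ciita docks. RefSeq promoters (250 bases before to 50 after the start, GRCm38.p6) were matched for 6 of the 9 genes. The stretches that hold the cores of both boxes, found in 4 of these 6, are shown because Ciita acts through such boxes. Capitals mark GCAAC, a short core of the X box, and ATTGG, the core of the Y box, with 15 to 40 bases allowed between them and both strands searched. The short X box core was chosen after these promoters were seen. Each stretch is printed 5′ to 3′ along its gene.
H2-Oa (chr17:34092297-34092346, plus strand): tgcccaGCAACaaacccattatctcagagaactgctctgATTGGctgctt
H2-Ob (chr17:34238812-34238858, plus strand): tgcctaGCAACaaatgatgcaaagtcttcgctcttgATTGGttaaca
H2-Aa (chr17:34287861-34287910, minus strand): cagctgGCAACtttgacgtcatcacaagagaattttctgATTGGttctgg
H2-Eb1 (chr17:34305770-34305818, plus strand): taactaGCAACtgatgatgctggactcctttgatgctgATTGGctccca
The search for counts covered the whole window, but only stretches on the gene's own strand that end before its start are printed. In these the Y box core ends 38 bases before the start in H2-Oa, 43 in H2-Aa, 52 in H2-Ob and 54 in H2-Eb1. The 2 cores lie 25 to 28 bases apart in the 4 genes. A pair of this kind is found in 1.24% of the 32851 promoters in the table, while ATTGG alone is found in 37.4% and GCAAC alone in 35.2%. With the longer X box core GCAACA, 2 members held the pair, H2-Oa and H2-Ob, against 0.414% of all promoters. The promoters of H2-DMa and H2-DMb1 held no such pair of letters in this window.

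The classical chains, the invariant chain and H2-DMa had their lowest mean at 12 months and a wide spread in the lifelong 24-month livers. None of these differences passed the test across all probe sets. H2-Ob was the exception in level: its mean was 5.28 ± 0.24 (SD, n = 6) at 6 months, 5.12 ± 0.11 (n = 7) at 12 months, 5.89 ± 0.47 (n = 7) at 24 months and 5.94 ± 0.33 (n = 8) in the switched group, in log2 units, and it rose from 6 to 24 months. Values are the deposited log2 expression values, and a level of one gene is set against that of others only as a percentile of signal. Differences and their standard errors (SE) come from limma with group and array batch as terms over all 35556 probe sets, and an adjusted p is the Benjamini-Hochberg value over all of them. A difference passes where the adjusted p is below 0.05, two-sided. The array batch is the first part of the array name, G150, G151 or G152, and each batch held livers of every group.

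**Figure D1:**
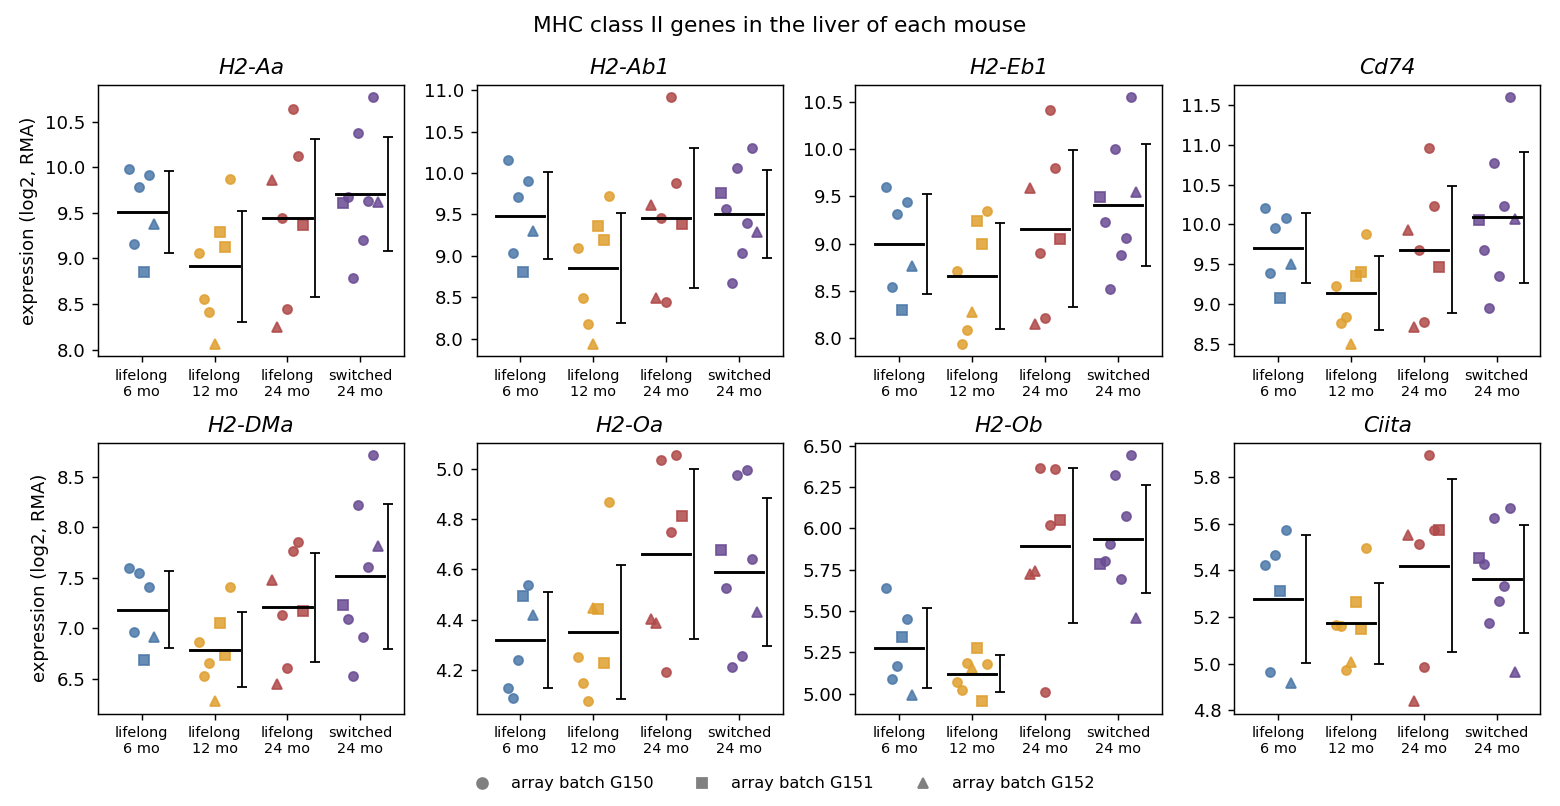
Level of each of the 8 measured genes (log2, vertical axis, a separate scale for each gene) in every liver, by group, with the mean as a bar, the SD as a whisker and the array batch as the symbol. The first 5 panels share a lower position at 12 months and long columns of points in the lifelong 24-month group. In the panel of H2-Ob the switched livers sit between 5.46 and 6.44, all above the highest 12-month liver at 5.27.

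H2-Aa, the alpha chain of the A molecule, had a median of 9.58 at 6 months (lowest 8.85, highest 9.98). At 12 months its median was 9.06 (8.07 to 9.87), at 24 months 9.44 (8.25 to 10.64) and in the switched group 9.62 (8.78 to 10.77). The 4 ranges overlapped, and the 24-month range held most of the 6-month and 12-month values. H2-Ab1, the beta chain that pairs with it, had medians of 9.51, 9.10, 9.46 and 9.48 in the same order of groups. Its extremes were 7.94 in a 12-month liver and 10.92 in a 24-month liver. H2-Eb1, the beta chain of the E molecule, had medians of 9.04, 8.71, 9.04 and 9.36, with extremes of 7.94 at 12 months and 10.55 in the switched group. All 3 chains had their highest median at 6 months or in the switched group and their lowest at 12 months.

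Cd74 behaved as the chains did. Its level ran from 9.08 to 10.20 at 6 months (median 9.73), from 8.50 to 9.89 at 12 months (median 9.23), from 8.71 to 10.97 at 24 months (median 9.68) and from 8.94 to 11.60 in the switched group (median 10.06). The highest liver of all was switched replicate 7, and every group overlapped with the others.
H2-DMa, a subunit of the peptide exchanger, ran from 6.68 to 7.59 at 6 months, 6.27 to 7.41 at 12 months, 6.44 to 7.85 at 24 months and 6.53 to 8.71 in the switched group, with medians of 7.18, 6.73, 7.17 and 7.42. Here too the groups overlapped and the lowest liver was a 12-month one.

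H2-Oa had medians of 4.33 at 6 months (4.09 to 4.54) and 4.25 at 12 months (4.08 to 4.87), against 4.75 at 24 months (4.19 to 5.05) and 4.58 in the switched group (4.21 to 4.99). H2-Ob had medians of 5.25 (4.99 to 5.64), 5.16 (4.95 to 5.27), 6.02 (5.01 to 6.36) and 5.85 (5.46 to 6.44). Its 12-month livers were the tightest of all and 6 of the 7 lifelong 24-month livers lay above every younger liver, the exception being replicate 4 at 5.01. Ciita, the shared coactivator, had medians of 5.37, 5.16, 5.55 and 5.38, and its lowest and highest livers, 4.84 and 5.89, were both lifelong 24-month livers.

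The first comparison asked how the livers at 12 months differed from those at 6 months. H2-Ab1 lay 0.64 lower (SE 0.34, 95% interval -1.34 to 0.06, 1.56-fold, limma adjusted p = 0.441) and H2-Aa 0.59 lower (SE 0.35, adjusted p = 0.502), with 6 of the 7 12-month livers below the 6-month mean for each. Cd74 lay 0.55 lower (SE 0.36, adjusted p = 0.551), H2-DMa 0.38 lower (adjusted p = 0.630) and H2-Eb1 0.34 lower (adjusted p = 0.752). H2-Ob and Ciita lay 0.16 and 0.11 lower, and H2-Oa 0.02 higher. So 7 of 8 differences were negative, as were 49.6% of those over all probe sets, and their median was -0.36 against 0.00 over all probe sets. The 8 genes share their livers and several moved together, so this count and those below are not 8 separate results. The genes were also chosen with earlier results of these data known. None of the 8 passed in limma, where 0.591% of all probe sets passed, and 0 of 8 had an unadjusted p under 0.05, against 13.1% of all probe sets. The mean at 12 months was the lowest of the 4 groups in every member but H2-Oa, a position that 18.1% of all probe sets shared. Within array batches the median difference of the 8 genes was -0.61 in G150 (4 livers against 4), 0.25 in G151 (2 against 1) and -0.56 in G152 (1 against 1), so the direction turned in G151. Its only 6-month liver, replicate 4, was the lowest of its group for 5 of the 8 genes.

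From 12 to 24 months all 8 genes lay higher, by a median of 0.56 against -0.02 over all probe sets, where 43.1% were positive. H2-Ob lay 0.81 higher (SE 0.16, 1.75-fold, limma adjusted p = 0.0615) and H2-Ab1 0.67 higher (SE 0.33, adjusted p = 0.455). H2-Aa, Cd74 and H2-Eb1 lay 0.58, 0.58 and 0.54 higher, H2-DMa 0.43, H2-Oa 0.34 and Ciita 0.30, with adjusted p between 0.377 and 0.590. None passed in limma, in a comparison where only 0.0253% of all probe sets did. At an unadjusted p under 0.05 stood 3 of the 8, H2-Ob, H2-Oa and Ciita, against 11.1% of all probe sets. Without 24-month replicate 4, the low liver described above, H2-Ob lay 0.98 higher with an adjusted p of 0.000409. No other single liver left out brought it past the threshold. Within G150, G151 and G152 H2-Ob lay 0.82, 0.94 and 0.58 higher, and the median of the 8 genes 0.71, 0.22 and 0.63 higher. These batches set 4 livers against 4, 1 against 2 and 2 against 1.

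Between 6 and 24 months the genes parted. H2-Ob rose by 0.65 (SE 0.17, 95% interval 0.30 to 0.99, 1.57-fold, limma adjusted p = 0.0247), and all lifelong 24-month livers but replicate 4 exceeded the 6-month mean. It was the 1 member of 8 that passed, where 4.73% of all probe sets passed and 2.1% passed as higher. Of the 8 differences 7 were positive, against 45.6% over all probe sets, and 2 had an unadjusted p under 0.05, against 19.2%. H2-Oa, its partner in H2-O, lay 0.36 higher (SE 0.15, unadjusted p = 0.0286, adjusted p = 0.190), also with 6 of 7 livers above the 6-month mean. Ciita lay 0.18 and H2-Eb1 0.19 higher, with adjusted p of 0.488 and 0.831. For H2-Aa, H2-Ab1, Cd74 and H2-DMa the difference was between -0.01 and 0.05, yet the 95% interval of H2-Aa ran from -0.72 to 0.71, so that changes of up to about that size were not resolved. The median over the members was 0.12.
The H2-Ob call was a narrow one. Its difference was 0.60 within batch G150 (4 livers against 4), 0.71 within G151 (1 against 1) and 0.74 within G152 (2 against 1). The adjusted p rose to 0.272 in G150 alone, 0.254 in the other batches alone and 0.112 when only these 2 groups were fitted. Leaving out 1 liver also took it above 0.05 for replicates 2 (0.0634), 3 (0.0649) and 6 (0.0715) of the 6-month group, and for replicates 3 (0.0634) and 6 (0.0556) of the 24-month group.

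In the comparison of the switched with the lifelong group at 24 months, both on the intermittent diet at that time, 4 genes lay higher and 4 lower, and 48% of all probe sets lay higher. Cd74 lay 0.33 higher (SE 0.34, limma adjusted p = 0.882), H2-DMa 0.26, H2-Eb1 0.21 and H2-Aa 0.18, while Ciita lay 0.11 lower, H2-Oa 0.09 and H2-Ab1 0.03. H2-Ob had a difference of 0.00 (95% interval -0.33 to 0.32). No member passed or had an unadjusted p under 0.05 in limma, where 0.0197% of all probe sets passed and 7.58% had such a p. The interval for Cd74 ran from -0.36 to 1.03, which leaves room for a sizeable difference in either direction. The median difference of the 8 genes was 0.06 within G150 (6 livers against 4), 0.15 within G151 (1 against 1) and 0.40 within G152 (1 against 2).

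Comparisons of the switched group with the younger groups were added after the data were seen, and they differ in both age and diet history. They share the younger livers with the comparisons above, so they are no independent repeat of them. Against 6 months H2-Ob rose by 0.64 (SE 0.16, limma adjusted p = 0.0112), with 8 of 8 switched livers above the 6-month mean. It was again the 1 member that passed, where 4.66% of all probe sets passed as higher. Against 12 months H2-Ob rose by 0.80 (SE 0.16, adjusted p = 0.00751), and the groups did not overlap, as was true, with the switched group higher, of 0.382% of all probe sets. In that comparison 1.32% of all probe sets passed as higher. Cd74 lay 0.91 higher than at 12 months (SE 0.34, unadjusted p = 0.0120, adjusted p = 0.146), H2-Aa 0.76, H2-Eb1 0.75, H2-DMa 0.69 and H2-Ab1 0.64, none past the threshold. All 8 differences were positive, against 41.2% over all probe sets, and their median was 0.72. Both H2-Ob calls against the younger groups were lost when G150 was fitted alone (adjusted p = 0.0988 against 6 months and 0.102 against 12 months) and when the other 2 batches were (0.365 and 0.382). They held when any single liver was left out. Within G150, G151 and G152 the H2-Ob difference was 0.71, 0.44 and 0.47 against 6 months, and 0.93, 0.67 and 0.30 against 12 months. G150 set 6 switched livers against 4 of each age. G151 set 1 against 1 at 6 months and 2 at 12 months, and G152 set 1 against 1 at each age.

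**Figure D2:**
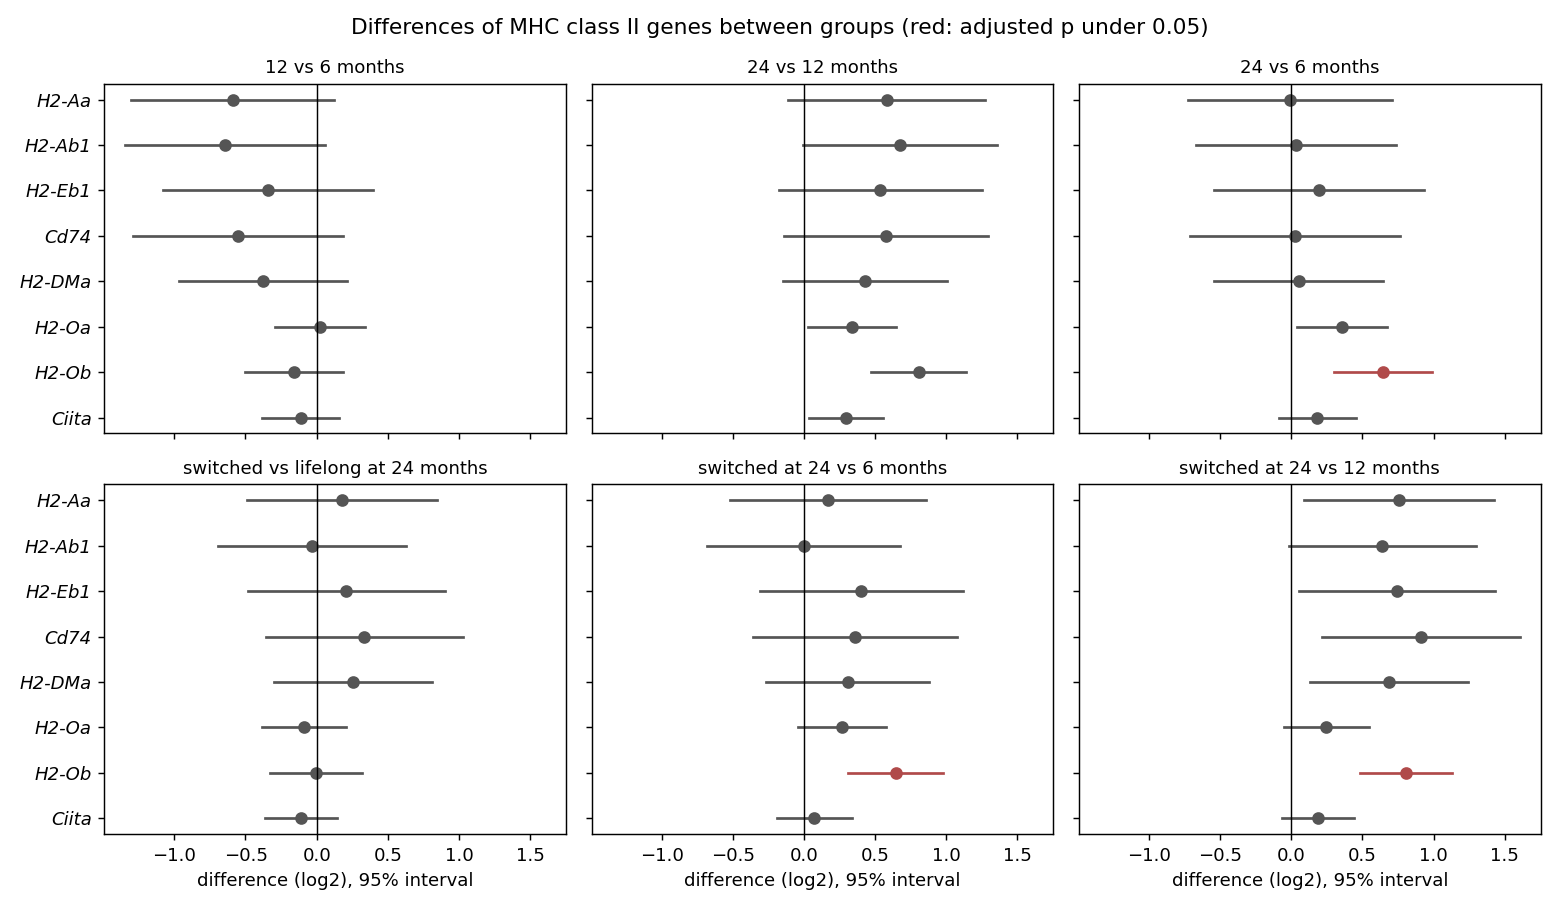
Difference in level between groups (log2, first group minus second, horizontal axis) for each gene, with the 95% interval from limma, and in red those with an adjusted p below 0.05. H2-Ob is the gene in red, at 0.65 for 24 against 6 months and at 0.64 and 0.80 for the switched group against 6 and 12 months, while the intervals of the chains, Cd74 and H2-DMa in the panel of 12 against 6 months all cross 0.

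The order of the group means was 12 months lowest for H2-Aa, H2-Ab1, H2-Eb1, Cd74, H2-DMa, H2-Ob and Ciita, and the switched group was highest for all of these but Ciita, which was highest in the lifelong 24-month group. For H2-Oa the lowest mean was that at 6 months (4.32 ± 0.19) and the highest that at 24 months (4.66 ± 0.34). In H2-Ob the order fell into a lower pair, 12 and 6 months, which differed by 0.16 (adjusted p = 0.754), and an upper pair, lifelong and switched at 24 months. In the other 7 genes no neighbouring means in the order differed by an amount that passed the test.

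The spread between the lifelong livers at 24 months was the other feature of these genes. The SD of H2-Aa was 0.87 in the lifelong 24-month livers, against 0.45 at 6 months and 0.61 at 12 months, and a range of 2.39 log2 units separated replicate 2 from replicate 5. For H2-Ab1 the SD was 0.85 against 0.53 and 0.66, for H2-Eb1 0.83 against 0.53 and 0.56, and for Cd74 0.80 against 0.44 and 0.47. These 4 genes were among the most variable of all probe sets in the old lifelong livers, at the 99.1st to 99.4th percentile of SD, but they already lay at the 93.1st to 95.9th percentile at 6 months. All 8 genes had a larger SD in the lifelong livers at 24 than at 6 months. The ratio lay between 1.36 (Ciita) and 1.93 (H2-Ob), with a median of 1.69. Over all probe sets the ratio was above 1 in 55.8% and its median was 1.07. Against 12 months, too, all 8 ratios were above 1 (median 1.47), where 54.8% of all probe sets were. Such counts rest on the same livers for all 8 genes, so they are not 8 separate results. In the switched livers the SD ratio to 6 months ran from 0.85 (Ciita) to 1.89 (H2-DMa). Its median was 1.36, against 1.10 over all probe sets. The ratio to 12 months ran from 0.81 (H2-Ab1) to 2.98 (H2-Ob), with 1.02 for H2-Aa. Its median was 1.24, against 1.07 over all probe sets.

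Whether the spread itself differed was tested with a Levene-type test, in which the absolute deviation of each liver from its group mean is compared between groups in limma over all probe sets. No member passed for 24 against 6 months (adjusted p from 0.643 to 0.902, 0 with an unadjusted p under 0.05, against 9.21% of all probe sets), in a test that 0.186% of all probe sets passed. For 24 against 12 months 0 passed as well, against 0.0253% of all probe sets, and 2 had an unadjusted p under 0.05, against 8.41%. One was H2-Ob, whose SD of 0.47 was 4.25 times that at 12 months (0.11; unadjusted p = 0.00958, adjusted p = 0.441), a ratio reached by 0.591% of all probe sets. The other was Ciita, with 0.37 against 0.17 (unadjusted p = 0.0320, adjusted p = 0.552). Between the switched and lifelong groups at 24 months 6 of the 8 ratios were below 1, where 51.8% of all probe sets had a ratio above 1, down to 0.63 for H2-Ab1 and Ciita, and those of Cd74 and H2-DMa were 1.04 and 1.34. None passed in that test, where 0.0225% of all probe sets did, and none had an unadjusted p under 0.05, against 8.17%. The SD in the lifelong 24-month group was the largest of the 4 groups for H2-Aa, H2-Ab1, H2-Eb1, H2-Oa, H2-Ob and Ciita, as it was for 26.7% of all probe sets.

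**Figure D3:**
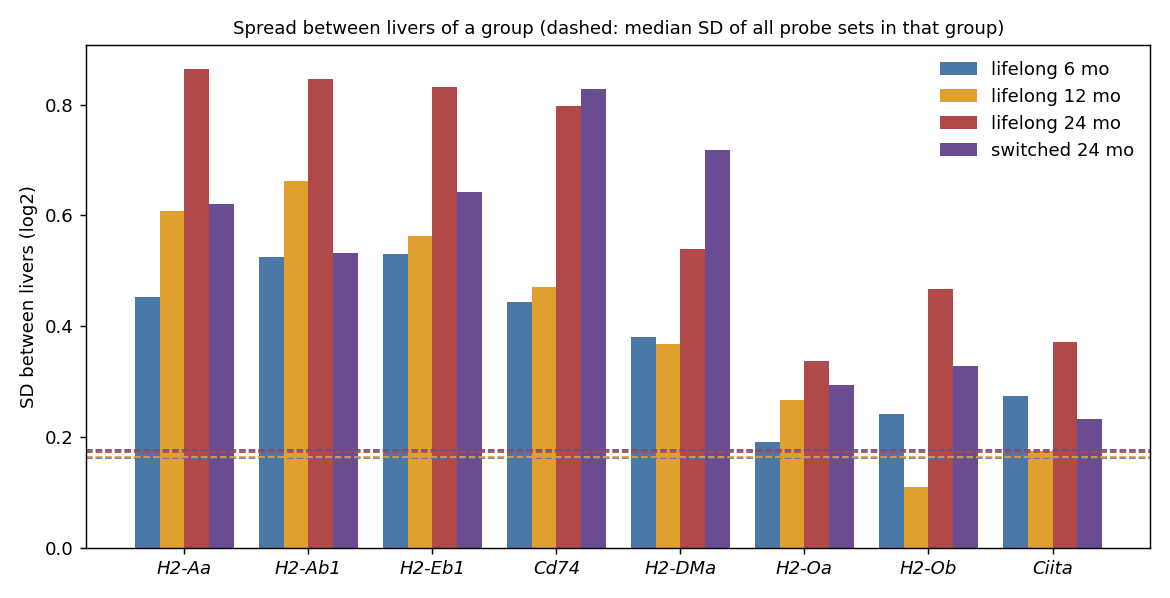
SD between the livers of a group (log2, vertical axis, from 0) for each gene, with a dashed line at the median SD of all probe sets in the same group. The bars of the lifelong 24-month livers are the tallest for 6 genes, at 0.87 for H2-Aa, while those of Cd74 (0.83) and H2-DMa (0.72) are tallest in the switched livers, and the dashed lines lie between 0.16 and 0.18.

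In every group, at the younger ages too, some livers were high or low for many of the genes together. Among the lifelong 24-month livers replicate 6 was 1 of the 2 highest for 8 of 8 genes and replicate 5 was the highest for 5, while replicate 4 was 1 of the 2 lowest for 8 of 8 and replicate 2 the lowest for 5. In the switched group replicate 7 was the highest for 7 genes and replicate 3 the lowest for 6. At 12 months replicate 7 was the highest for 7 genes, and at 6 months replicate 1 for 6. The livers named here as high were all in G150. Of those that were the lowest of their group for 3 or more genes, 6-month replicate 4 was in G151, and 12-month replicate 4 and 24-month replicate 2 were in G152. Switched replicate 3 was in G150, as was 24-month replicate 4. The part of the batch in this order, and the part of this order in the wider spread of the lifelong 24-month livers, was not tested.

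Across the 28 livers, with each group mean taken off, H2-Aa, H2-Ab1, H2-Eb1, Cd74 and H2-DMa moved almost as a unit, with Pearson's r between 0.83 (H2-Ab1 with H2-DMa) and 0.97 (H2-Aa with H2-Ab1). Ciita followed these 5 with r between 0.69 and 0.83. H2-Oa and H2-Ob followed them less closely, with r from 0.46 to 0.57, and correlated with each other at 0.63. These correlations are descriptions, since the genes share a liver, an RNA sample and an array. The genes also differed in signal. By mean level among all probe sets H2-Oa lay at the 38.2nd percentile, Ciita at the 50.7th and H2-Ob at the 54.3rd. The other 5 lay between the 72.1st (H2-DMa) and the 92.1st (Cd74). The part of signal level in these correlations was not tested. When all 18820 genes were ordered by their r with the mean of H2-Aa, H2-Ab1, H2-Eb1 and Cd74, Ciita stood at rank 46, H2-Ob at 773 and H2-Oa at 870.

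The genes outside the group that were most like that mean, by Pearson's r over the 28 livers after taking off the group means, were Saa3 (r = 0.90), Epsti1 (0.90), Fgd2 (0.89), Gbp2 (0.88), Ctss (0.88), Fgl2 (0.88), Ifi203 (0.87), Fcer1g (0.87), Tbc1d9 (0.86) and Wdfy4 (0.85). Ctss encodes the cathepsin that cuts the invariant chain, Fcer1g the signalling chain of Fc receptors of myeloid cells, Gbp2 a GTPase induced by interferon gamma, and Wdfy4 a protein that dendritic cells need for cross-presentation. Spearman's rho for these 10 ran from 0.81 (Wdfy4) to 0.91 (Saa3), and r stayed between 0.80 and 0.91 without the livers farthest from the median, 24-month replicate 5 and switched replicate 7. In all 299 genes, 1.59% of those measured, reached r of 0.7. Among the listed markers and pathway genes, 8 of 14 for Kupffer cells and macrophages and 6 of 10 for all leukocytes did so. The count was 2 of 11 for recruited monocytes and lipid-associated macrophages. It was 1 of 12 for dendritic cells, 0 of 11 for B cells and 0 of 10 for hepatocytes. The lists also differed in signal. By mean level among all probe sets, macrophage markers lay between the 49.5th (Marco) and 95.8th percentile (Vsig4). Dendritic cell markers lay between the 16.6th (Clec10a) and 74.0th (Irf8), and B cell markers between the 12.0th (Cr2) and 66.5th (Cd37). The part of signal level in these counts was not tested.

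Genes most like a single member were looked at after the values were seen. The 5 closest to H2-Ob were Cd48 (r = 0.83) and Cd37 (0.82), surface proteins of leukocytes, Cd300c2 (0.82), the endothelial receptor Acvrl1 (0.82) and the kinase Syk (0.81). The 3 closest to H2-Oa were Wipf1 (0.78), the B cell lectin Cd22 (0.77) and the lymphocyte receptor Btla (0.77), and the closest to Ciita was the integrin chain Itga4 (0.86).

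Markers of cells that could carry these genes were measured in the same livers. For each liver a marker list has a level, the mean log2 value of its measured genes. The level of 14 Kupffer cell and macrophage markers ran from 8.11 to 8.66 at 6 months, 7.74 to 8.23 at 12 months, 7.88 to 9.21 at 24 months and 7.78 to 9.84 in the switched group, so its lowest maximum was at 12 months and its widest ranges were at 24 months. Of these markers 13 of 14 lay lower at 12 than at 6 months (median -0.29) and 13 of 14 higher at 24 than at 12 months (median 0.60), and 0 passed in limma in either comparison, where 0.591% and 0.0253% of all probe sets did. At an unadjusted p under 0.05 stood 0 and 10 of the 14, against 13.1% and 11.1% of all probe sets. Cd163 of this list lay 1.56 lower in the switched livers than at 6 months (limma adjusted p = 0.0122). Of 11 measured markers of recruited monocytes and lipid-associated macrophages, Lyz2, Gpnmb and Cd9 had the smallest p. Lyz2 lay 1.19 higher at 24 than at 12 months (adjusted p = 0.0798). Gpnmb rose by 1.23 and Cd9 by 0.57 from 6 to 24 months (adjusted p = 0.0347 and 0.0368), where 2.1% of all probe sets passed as higher. The 10 markers of all leukocytes all lay lower at 12 than at 6 months (median -0.17) and all higher at 24 than at 12 months (median 0.68), with 0 passing in limma and 0 and 10 at an unadjusted p under 0.05, beside the same 13.1% and 11.1%. Their level ran from 6.49 to 6.98 at 12 months and from 6.65 to 8.12 at 24 months. The hepatocyte level stayed between 12.77 and 13.03 in all 28 livers, which bears out the labelled tissue. With the group means taken off, the mean of the 4 leading class II genes correlated with the leukocyte level at r = 0.80 (rho 0.85, 0.87 without the 2 livers farthest out), with the macrophage level at 0.75, with the dendritic cell level at 0.77, with the B cell level at 0.57 and with the hepatocyte level at -0.13. Not every liver followed: 24-month replicate 3 had the highest macrophage and leukocyte levels of its group, 9.21 and 8.12, while the mean of its 8 class II genes was 7.69, between the group extremes of 6.83 and 8.42. The part of these cells in the class II values was not tested.

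**Figure D4:**
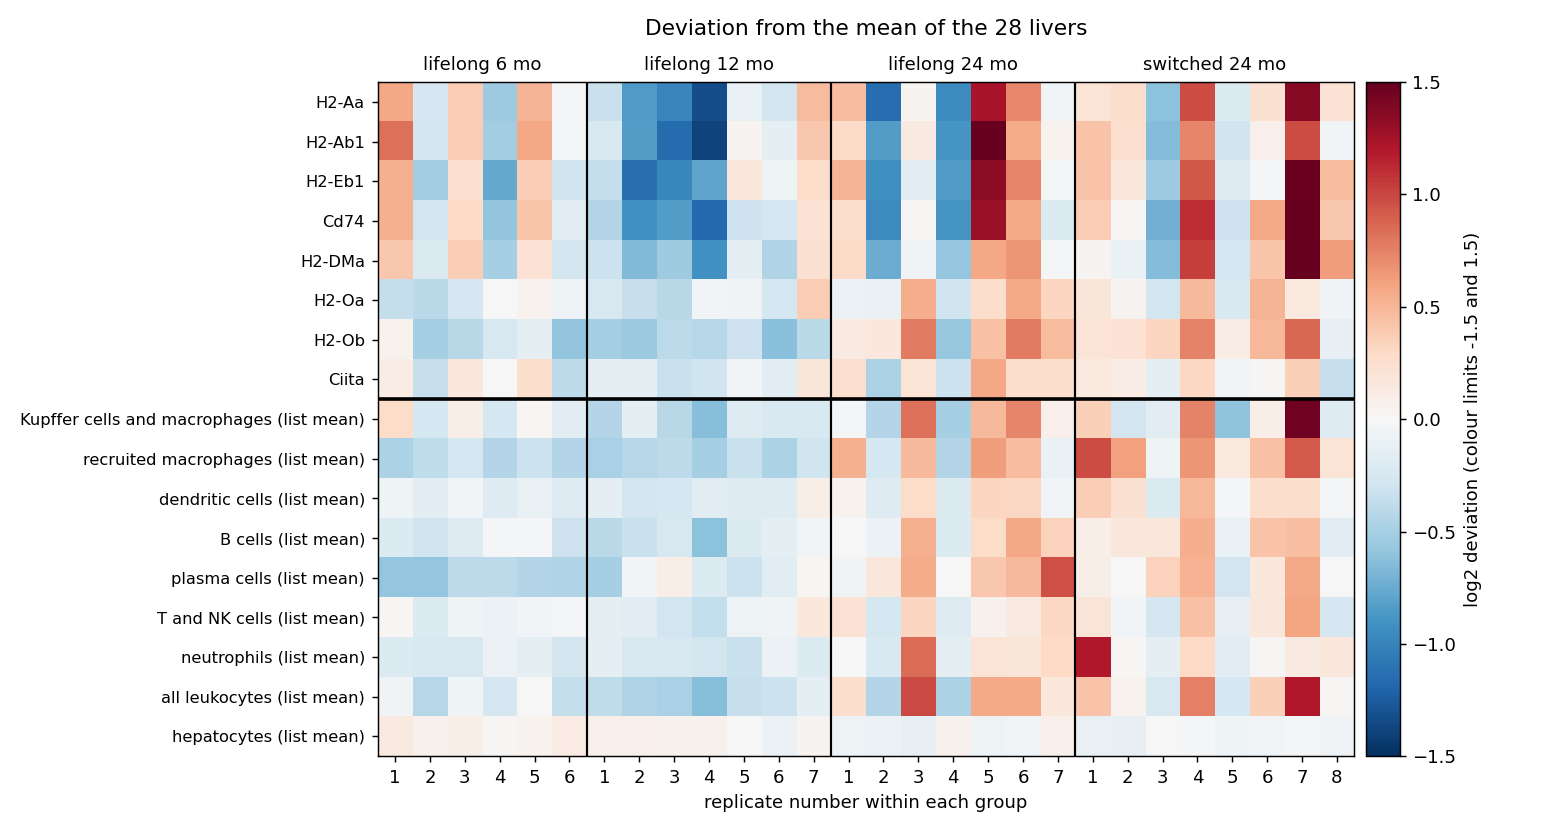
Deviation of each liver from the mean of all 28 livers (log2, colour, limits -1.5 and 1.5) for the 8 genes and, below the line, for the levels of 9 marker lists, with livers in columns by group. Lifelong 24-month replicates 5 and 6 and switched replicates 4 and 7 are high for the class II genes and for macrophage and leukocyte markers, and the hepatocyte row stays near 0.

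Levels of 5 marker lists were set against H2-Ob. It correlated with the level of 11 B cell markers at r = 0.81 (rho 0.81, 0.76 without the 2 livers farthest out), with the leukocyte and macrophage levels at 0.77 each with the dendritic cell level at 0.61 and with the hepatocyte level at -0.09. Marker by marker, its median r was 0.73 for leukocytes, 0.70 for macrophages and 0.58 for B cells. The B cell level ran from 4.83 to 5.13 at 6 months, 4.53 to 5.11 at 12 months, 4.94 to 5.72 at 24 months and 4.98 to 5.69 in the switched group. Replicate 4, the old lifelong liver with the lowest H2-Ob, also had the lowest B cell level of its group. All 11 markers lay higher at 24 than at 6 months (median 0.46), and 4 rose, where 4.73% of all probe sets passed and 2.1% passed as higher: Cd79b of the B cell receptor by 0.84 (SE 0.24, limma adjusted p = 0.0375), Ms4a1 by 0.75, Cd22 by 0.59 and Pax5, a B cell transcription factor, by 0.46. With 1 liver left out the count of B cell markers called for 24 against 6 months lay between 0 and 7. From 12 to 24 months 1 of the 11 passed, where 0.0253% of all probe sets did. This was Cd79b, 1.25 higher (limma adjusted p = 0.0439), a call that held in 3 of 14 fits with 1 liver left out. A higher level was not particular to B cell markers. The 10 markers of all leukocytes also all lay higher at 24 than at 6 months, by 0.34 (Arhgdib) to 0.71 (Itgb2), with 0 passing in limma. Of 9 plasma cell markers 3 rose from 6 to 24 months, beside the same 2.1% of all probe sets. These were the immunoglobulin genes Igkc, by 3.52 (limma adjusted p = 0.00197), and Igha, by 1.53 (adjusted p = 0.0158), and Jchain, which joins immunoglobulin units, by 1.61 (adjusted p = 0.00341). The others did not pass: Mzb1 lay 0.45, Prdm1 0.35, Tnfrsf17 0.24 and Derl3 0.15 higher, and Xbp1 and Sdc1 0.05 and 0.07 lower. Igkc already lay 1.51 higher at 12 than at 6 months (adjusted p = 0.271), while H2-Ob lay 0.16 lower. The part of B cells, plasma cells and other leukocytes in the H2-Ob difference was not tested.

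**Figure D5:**
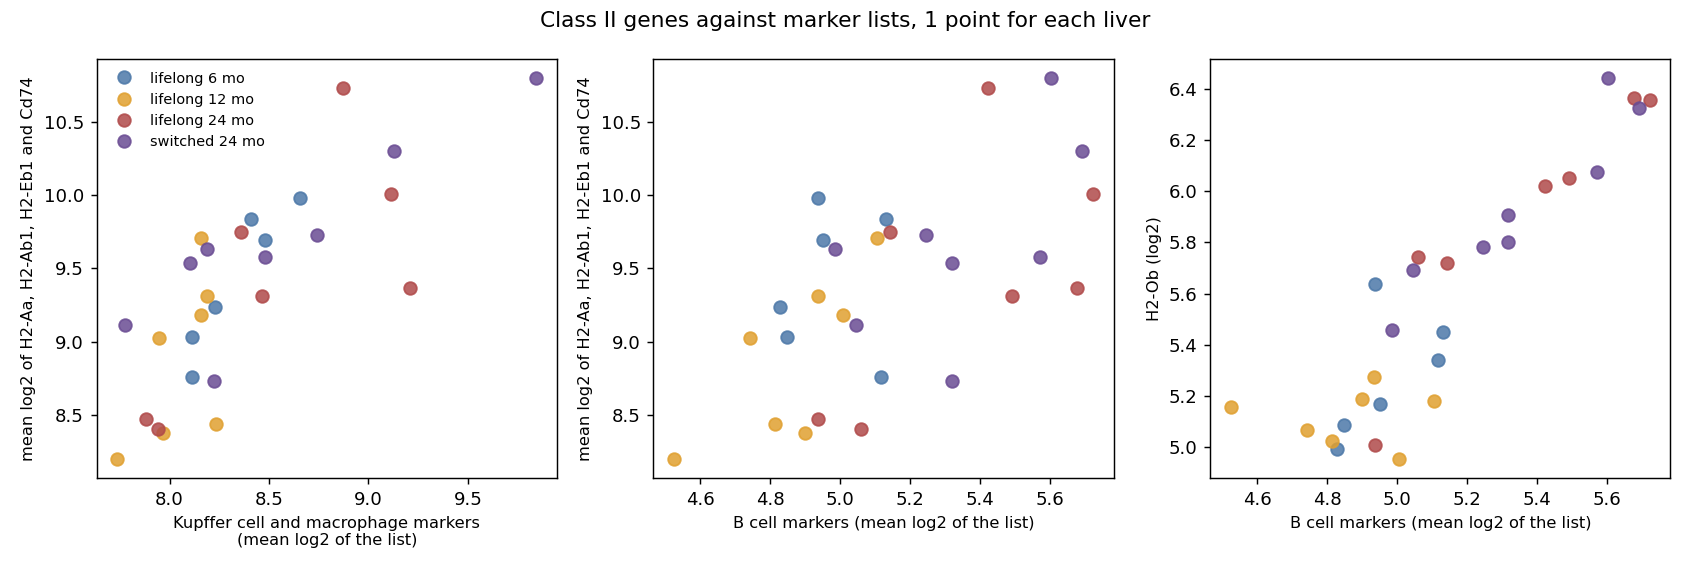
Mean log2 level of H2-Aa, H2-Ab1, H2-Eb1 and Cd74 against the levels of Kupffer cell and macrophage markers (left) and B cell markers (middle), and H2-Ob against B cell markers (right), 1 point for each liver, coloured by group. In the right panel the livers with a high B cell level are also high in H2-Ob, and the lifelong 24-month liver among the younger ones there is replicate 4, at an H2-Ob level of 5.01.

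Of the genes that control class II expression, 14 of 16 listed were measured, Ciita among them. In the comparison of 12 with 6 months 0 of the 14 passed in limma, where 0.591% of all probe sets did. At an unadjusted p under 0.05 stood 3, against 13.1% of all probe sets, and the median difference of the 14 was 0.01. The RFX subunit Rfx5 lay 0.18 higher and the difference of Rfxap was 0.00, the NF-Y subunits Nfya, Nfyb and Nfyc differed by -0.22, 0.16 and 0.01, and Creb1 lay 0.15 lower (adjusted p from 0.254 to 0.991). From 6 to 24 months 1 of the 14 rose, beside the 2.1% of all probe sets that passed as higher: Irf1, an interferon-induced transcription factor, by 0.47 (SE 0.13, limma adjusted p = 0.0301). Irf1 already lay 0.41 higher at 12 months (adjusted p = 0.124), the opposite side from Ciita at -0.11. Its call at 24 months held in 5 of 13 fits with 1 liver left out (adjusted p up to 0.0990). Interferon gamma itself, Ifng, lay 0.15 higher (adjusted p = 0.382) and its receptor chain Ifngr2 0.35 higher (adjusted p = 0.0694). Spi1, the myeloid factor PU.1, lay 0.27 lower at 12 than at 6 months and 0.76 higher at 24 than at 12 months (adjusted p = 0.687 and 0.192). Only Ciita, Spi1 and Ifngr1 of this list reached r of 0.7 with the 4 leading genes.

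Of 11 measured endolysosomal genes of antigen processing, 4 rose from 6 to 24 months, where 2.1% of all probe sets passed as higher: the protease cathepsin D, Ctsd, by 0.36 (SE 0.06, limma adjusted p = 0.00251), Ctsz by 0.30, Ctsl by 0.26 and the lysosomal membrane protein Lamp1 by 0.20. These proteases are also made in hepatocytes. The Ctsd call held in 13 of 13 fits with 1 liver left out and in 9 of 11 other alternatives (adjusted p up to 0.383). The count for the list lay between 1 and 4 without a single liver and between 0 and 4 over the other alternatives. Ctss, the cathepsin closest to class II in likeness, lay 0.38 lower at 12 than at 6 months and 0.55 higher at 24 than at 12 months (adjusted p = 0.407 and 0.235). None of the 11 passed in limma for 12 against 6 months, where 0.591% of all probe sets did, and their median difference was 0.02. At an unadjusted p under 0.05 stood 1 of the 11, against 13.1% of all probe sets.

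Of 12 measured genes of co-stimulation, turnover and T cell contact, 2 rose from 6 to 24 months, where 2.1% of all probe sets passed as higher: the adhesion molecule Icam1 by 0.63 (limma adjusted p = 0.0234) and the receptor Cd40 by 0.39 (adjusted p = 0.0382). Without a single liver the count for this list lay between 0 and 3. The other class II loci measured were H2-Eb2, 0.43 higher at 24 than at 6 months (adjusted p = 0.107), and H2-Ea, 0.07 lower (adjusted p = 0.589). The probe set of H2-Ea was among the dimmest, with a mean of 2.73 at the 7.0th percentile of all probe sets, so its difference says little. In MHC class I presentation, whose genes share some of these regulators, 5 of 11 rose from 6 to 24 months, beside 2.1% of all probe sets, with a median of 0.30 (0 to 6 called without a single liver): Psmb9 of the immunoproteasome, the peptide transporter chains Tap1 and Tap2, its partner Tapbp, and H2-T23. At 12 months the class I median lay 0.15 above that at 6 months while the class II median lay 0.36 below. Dendritic cell markers, of which 12 were measured, had a median difference of 0.00 at 12 against 6 months and 0.21 at 24 against 6 months, with 1 rising (beside 2.1% of all probe sets), Itgax, by 0.71 (limma adjusted p = 0.0491), in 4 of 13 fits with 1 liver left out.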

How the data were processed

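The authors deposited log2 expression values made with RMA (background correction, quantile normalisation and summary of probes), per the submitters' processing notes. For RMA's version: not given in the sources used here. There were 35556 probe sets on each of 28 arrays, with array medians of 5.23 to 5.31. The platform annotation names 1 gene for 21218 probe sets, several for 1881 and none for 12457. The number of arrays limits the precision. A gene was represented by its brightest one-gene probe set, and each member had 1.

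Differences were fitted with limma 3.58.1 in R 4.3.3 (group and array batch as fixed terms, all 4 groups, empirical Bayes, Benjamini-Hochberg over all probe sets, threshold 0.05, two-sided), after the script was tested on simulated data. Spread was tested on absolute deviations from group means, scaled for group size. Correlations with the levels of marker lists and motif searches used Python 3.11.15, pandas 2.3.3 and numpy 2.4.6, and figures matplotlib 3.10.9. The other correlations were computed in R. The members and lists were chosen with earlier results of these data known. Named genes are the members, genes of the class II control list, the 10 genes most like the mean of H2-Aa, H2-Ab1, H2-Eb1 and Cd74, and genes with the smallest p of some lists. Genes of the T and NK cell, neutrophil, sinusoidal endothelium, stellate cell, cholangiocyte and hepatocyte lists were not described above. Of these, Ngfr (stellate cells) lay 0.38 higher and Tat (hepatocytes) 0.42 lower at 24 than at 6 months (limma adjusted p = 0.0390 and 0.0355). Other genes that passed in a list were named after their values were seen. Alternatives changed the batch term, the arrays, the filter, the normalisation, the moderation and the weights, added a replicate block, and left out each liver in turn.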

Additional observations from a re-analysis of the deposited data

Results flagged for a closer look

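Of 108 sets of livers examined for a single liver far from the rest of its group, 2 had one, where chance gives about 1 in 20. The level of the dendritic cell markers in 12-month replicate 7 was 5.38, with the nearest liver of its group at 5.16. That liver was also the highest of its group for 7 of the 8 class II genes. The level of the neutrophil markers in switched replicate 1 was 5.42, with the nearest liver of its group at 4.52. That liver was neither the highest nor the lowest of its group for any of the 8 class II genes.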

How the results depend on the processing

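The count of class II genes called for 24 against 6 months, 1 in the main setting, was 0 in batch G150 alone, 0 in batches G151 and G152 alone, 0 with only the groups compared in the fit, and 0 with the replicate number as a block, and it ran from 0 to 1 when each liver was left out in turn. For the switched group against 6 months and against 12 months it was 0 in G150 alone and 0 in G151 and G152 alone, settings with fewer livers. For 24 against 12 months it was 1 after dropping the dimmest 30 percent of probe sets and 1 with array weights, and 0 to 1 without a single liver. The cause of the changes with the block and the weights was not tested. The counts for 12 against 6 months, for switched against lifelong and for spread were 0 in every alternative run. The median difference of the 8 genes ran from -0.61 to -0.12 for 12 against 6 months and from 0.36 to 0.71 for 24 against 12 months over the alternatives. For 24 against 6 months it ran from 0.03 to 0.22, and from -0.03 to 0.26 without a single liver. For switched against lifelong it ran from 0.02 to 0.34, and from -0.11 to 0.28 without a single liver. Over all probe sets the count called ran over the alternatives from 0 to 518 for 12 against 6 months (210 in the main setting), from 3 to 2271 for 24 against 6 months (1681), from 0 to 39 for 24 against 12 months (9), from 0 to 10 for switched against lifelong (7), from 4 to 4003 for switched against 6 months (3572) and from 1 to 1014 for switched against 12 months (826). Livers with the same replicate number did not deviate together: over 39 pairs r ran from -0.13 to 0.15, with 1 over 0.1, so the numbers were not taken as a pairing. With the block H2-Ob lay 0.60 higher at 24 than at 6 months (limma adjusted p = 0.0780). No class II gene had more than 1 one-gene probe set, so the mean over probe sets was not run.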
